A study of Mus musculus with 24 samples.

Results

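YAP, TAZ, the TEAD factors and genes of the Hippo pathway were followed by 10 genes, chosen by symbol from the deposited matrix of gene counts. These were Yap1 and Wwtr1, which encode the co-activators YAP and TAZ, the DNA-binding factors Tead1, Tead2, Tead3 and Tead4, the TEAD cofactor Vgll4, and Ankrd1, Amotl2 and Lats2, which YAP and TAZ switch on in many cells. All 10 were among the 52178 genes of the matrix, and all 10 passed the filter on low counts that left 21283 genes for testing. RNA was sequenced after ribosomal RNA depletion from 24 explant cultures, 4 in each of 6 groups. The study's methods report RNA integrity values under the ideal minimum and propose some partial degradation of the RNA. Hip caps, the cartilage of the femoral head, came from male C57/BL6 mice of 4 weeks, and each sample pooled the 2 caps of an animal. Metatarsals came from C57/BL6 embryos at E15, whose sex is unknown, and each sample pooled 6 bones. Both were cultured for 24 h, held for 1 h in pressurized syringes at 0 MPa (the controls), 5 MPa or 50 MPa, and kept for another 24 h. No group carried an altered allele or received a drug. Age, site and culture medium differ between the tissues. Sex may differ too, as the study lists Xist among the genes most reduced in hip caps. The parts of these factors in a difference between hip caps and metatarsals cannot be told apart. The labels write the pressures in mPa and the study's methods in MPa, and MPa is used here.

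Library totals ranged from 4185241 to 25104240 counts. The study set 2 libraries aside, control replicate 4 and 50 MPa replicate 2 of the hip caps, and 22 entered the tests. In control replicate 4, 4 of the 10 genes lay below and 1 lay above the range of the other 10 hip cap libraries, and in 50 MPa replicate 2, 6 lay below and 2 lay above. The labels mark 6 libraries as unstranded, namely hip cap control replicate 3, all hip caps at 50 MPa and metatarsal replicate 4 at 50 MPa. The sequencing run was read by colour from the study's clustering heat map and is uncertain. The sizes of the runs by that reading do not match the split of libraries over sequencing kits in the study's methods, and every fit with a run term and every within-run value rests on that reading. By that reading, the hip cap controls in the tests were in run 1 and all hip caps at 5 MPa in run 2. The summed level of 10 cartilage markers ran from 22224 to 78800 CPM (counts scaled to a common library size) over 10 hip cap libraries and from 1939 to 5134 CPM over 12 metatarsal libraries, with no marker at 0 in any of them. Skeletal muscle markers summed to between 10.0 and 44.9 CPM in hip caps and to between 462 and 2555 CPM in metatarsals. In the controls, 10 of 10 cartilage markers were higher in hip caps and 10 of 10 muscle markers were lower, as were 7 of 10 fibroblast and perichondrium markers, while 2 of that list were higher. Of 8 endothelial markers 1 was lower. Leukocyte markers, 8 in all, summed to between 112 and 797 CPM in hip caps and to between 60.2 and 118 CPM in metatarsals. In such bulk samples, fewer cells of a type and less RNA per cell cannot be told apart.

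In the Hippo pathway the kinases encoded by Stk3 and Stk4 activate the LATS kinases, which phosphorylate YAP and TAZ and keep them in the cytoplasm. When the kinases are inactive, YAP and TAZ enter the nucleus and bind TEAD factors, and the expression of genes such as Ccn1, Ccn2, Ankrd1 and Amotl2 is raised. VGLL4 competes with YAP for TEAD, and AMOTL2 and LATS2 hold YAP and TAZ back, so that these targets also act as feedback inhibitors. The pathway responds to cell shape, matrix stiffness and load, and it limits growth and differentiation in many tissues, cartilage included. Its central steps are phosphorylation and nuclear entry, which RNA levels do not report.

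TEAD factors bind the hexamer GGAATG, read as CATTCC on the other strand. Promoter windows of 250 bases before the start site were searched for it on both strands in the RefSeq promoter table (GRCm38.p6). Of 27025 genes, 14.4% held at least 1 copy. Of the 10 genes, 8 had an entry and 6 of these held a copy (Yap1, Wwtr1, Tead3, Vgll4, Ankrd1 and Amotl2). Tead2 and Lats2 did not, which says only that these letters are not in this window, and Tead1 and Tead4 had no entry. Of other Hippo genes, 6 of 21 with an entry held a copy, as did 3 of 11 further YAP and TAZ targets. The windows below show each copy in the 10 genes, and those in the targets Ccn1, Axl and Crim1, for comparison of the flanking bases. They are 30 bases long, run 5′ to 3′ on the gene's strand, and have the hexamer in capitals.
Yap1, chr9:8004720-8004749, minus strand: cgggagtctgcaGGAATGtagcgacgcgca
Wwtr1, chr3:57576029-57576058, minus strand: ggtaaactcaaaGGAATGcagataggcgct
Tead3, chr17:28350970-28350999, minus strand: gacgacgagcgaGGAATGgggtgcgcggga
Tead3, chr17:28350706-28350735, minus strand: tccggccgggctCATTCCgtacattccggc
Tead3, chr17:28350697-28350726, minus strand: gctcattccgtaCATTCCggccatccccct
Vgll4, chr6:114969268-114969297, minus strand: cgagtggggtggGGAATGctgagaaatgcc
Ankrd1, chr19:36120037-36120066, minus strand: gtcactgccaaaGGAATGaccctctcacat
Ankrd1, chr19:36119950-36119979, minus strand: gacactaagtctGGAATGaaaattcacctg
Amotl2, chr9:102717727-102717756, plus strand: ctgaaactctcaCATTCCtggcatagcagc
Ccn1, chr3:145650071-145650100, minus strand: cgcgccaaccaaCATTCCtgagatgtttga
Axl, chr7:25788949-25788978, minus strand: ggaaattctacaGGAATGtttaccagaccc
Crim1, chr17:78200157-78200186, plus strand: agggcgggggggGGAATGaggtaggatggg
In Tead3 a pair of copies lay within 1 printed window, and Ankrd1 carried 2 copies with the same orientation. Of the 250 bases searched, 250 lay in annotated exons for Ankrd1, 217 for the Tead3 window with the pair and 136 for Amotl2. By the gene positions given below, the copies in Ankrd1, Amotl2 and Vgll4 and the pair in Tead3 lie inside the annotated gene, not upstream of it. A match is a description of the sequence and does not show that TEAD binds there.

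The comparison of control explants asked how the RNA of these genes differs between hip caps and metatarsals. The study uses them as articular and growth plate cartilage, and their unlike marker sums are given above. In the fit over 22 libraries, with terms for run and library type, 3 of the 10 genes were higher in hip caps (Amotl2, Lats2 and Wwtr1), 3 were lower (Tead2, Tead3 and Ankrd1) and 4 did not pass the threshold of an adjusted p-value of 0.05 (edgeR). Of all genes tested, 29.9% passed it, 14.1% as higher and 15.9% as lower. At 5 MPa, 6 of the 10 differed between the tissues, beside 37.9% of all genes, and at 50 MPa 5 did, beside 19.7%. The median log2 fold change of the 10 genes was 0.10 in controls, beside -0.08 for all genes. Tead2, Tead3 and Amotl2 differed at each of the 3 pressures, with non-overlapping groups each time. Non-overlapping groups were found for 7 of the 10 genes in controls, beside 42.4% of all genes, for 6 at 5 MPa, beside 40.8%, and for 6 at 50 MPa, beside 39.8%. When metatarsal control replicate 1 was left out, 3 of the 6 differences in controls were lost, and when metatarsal replicate 4 at 50 MPa, the only unstranded metatarsal library, was left out, 0 of the 10 genes passed at 50 MPa, so that comparison rests on 1 library. At 5 MPa, both tissues can be compared within stranded libraries of run 2 alone, with 4 libraries each. There 8 of the 10 genes passed, namely all but Vgll4 and Ankrd1, beside 47.1% of all genes.

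**Figure D1:**
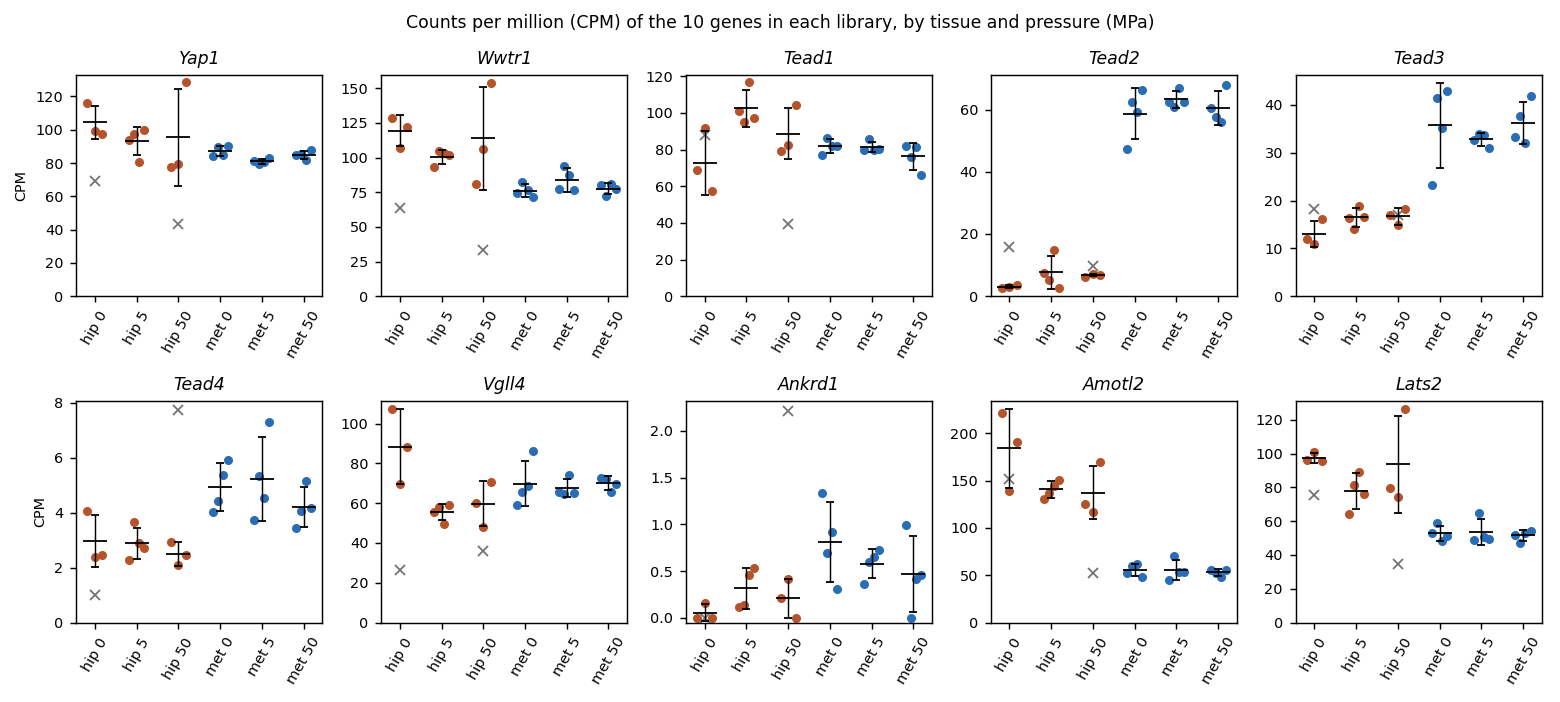
Level of each of the 10 genes (vertical axis, CPM) in each library, by tissue and pressure in MPa (horizontal axis; hip caps in brown, metatarsals, shown as met, in blue). Dots are the 22 libraries in the tests, crosses the 2 hip cap libraries left out, and bars the mean and SD of the dots. Tead2 and Tead3 lie lower in every hip cap dot than in any metatarsal, Amotl2 higher, and Ankrd1 stays below 1.4 CPM in every dot.

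Yap1 (chromosome 9, 7931999 to 8004596, minus strand, GRCm38), the co-activator that gives the pathway its output, was at 116, 99.5 and 97.7 CPM in the hip cap controls and at 84.3, 89.8, 84.6 and 90.0 CPM in the metatarsal controls. The groups did not overlap, yet the difference did not pass the test (log2 fold change 0.25 ± 0.19, SE, 95% interval -0.14 to 0.65, adjusted p = 0.337). At 5 MPa Yap1 was at 94.1, 97.2, 80.8 and 99.7 CPM in hip caps and at 81.4, 79.4, 80.8 and 83.1 CPM in metatarsals, which overlap. The difference was 0.20 ± 0.13 (adjusted p = 0.26) in the fit over all groups and 0.27 ± 0.08 (adjusted p = 0.00890) within stranded libraries of run 2. At 50 MPa 1 hip cap library stood at 129 CPM and the other 2 at 77.5 and 79.7 CPM, while metatarsals held 84.9, 85.3, 81.7 and 87.7 CPM. Over all pressures the 12 metatarsal libraries thus stayed within 79.4 to 90.0 CPM, a narrower range than the 77.5 to 129 CPM of the 10 hip caps. When libraries were scaled by their totals alone, the median gene shifted to -0.97 in the control comparison and Yap1 turned to -0.66, still above that median.

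Wwtr1 (chromosome 3, 57455649 to 57575910, minus strand), which encodes TAZ, was at 129, 107 and 122 CPM in the hip cap controls and at 74.7, 82.2, 76.8 and 71.2 CPM in the metatarsal controls. The hip caps were higher by 0.67 ± 0.21 on the log2 scale (adjusted p = 0.0183), although with scaling by totals alone the value turned to -0.25, again above the shifted median. The call was lost when any of hip cap control replicates 1 and 3, metatarsal control replicate 1 or metatarsal replicate 4 at 50 MPa was left out, with values between 0.59 and 0.69, and with all 24 libraries (0.33). At 5 MPa hip caps held 93.0, 105, 103 and 102 CPM and metatarsals 77.0, 93.7, 87.7 and 76.5 CPM. Here the groups overlapped, and the difference of 0.27 ± 0.14 (adjusted p = 0.157) became 0.34 ± 0.08 (adjusted p = 0.00378) within run 2. At 50 MPa hip caps held 81.0, 106 and 154 CPM and metatarsals 80.2, 72.1, 80.6 and 77.1 CPM, with a difference of 0.55 ± 0.22 (adjusted p = 0.0868).

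Tead1 (chromosome 7, 112679318 to 112906807, plus strand), a TEAD factor found in most tissues, was at 68.9, 91.7 and 57.6 CPM in hip cap controls and at 77.0, 86.2, 82.0 and 82.2 CPM in metatarsal controls. These overlapped, and the difference was -0.06 ± 0.16 (95% interval -0.40 to 0.28). At 5 MPa the hip caps, at 101, 94.8, 117 and 97.0 CPM, all lay above the metatarsals, at 79.6, 85.5, 80.0 and 80.0 CPM. The difference was 0.33 ± 0.11 (adjusted p = 0.0259), or 0.41 ± 0.08 within run 2. The call was lost with all 24 libraries and without metatarsal replicate 3 at 5 MPa (0.32), and the value turned to -0.29 with scaling by totals alone, where the median gene stood at -0.70. At 50 MPa hip caps held 79.0, 82.2 and 104 CPM and metatarsals 81.9, 75.9, 81.4 and 66.2 CPM. The difference of 0.49 ± 0.17 was at the edge of the threshold (adjusted p = 0.0492), lost in 7 of 10 alternatives and -0.48 with totals alone. It kept the call in only 3 of 22 fits with 1 library left out.

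Tead2 (chromosome 7, 45215753 to 45233644, plus strand) was the member with the largest tissue difference among those above the floor of 3 counts. It stood at 2.71, 2.86 and 3.52 CPM in hip cap controls and at 47.2, 62.3, 59.1 and 66.2 CPM in metatarsal controls. It was lower in hip caps by -4.20 ± 0.47 on the log2 scale (adjusted p = 2.57e-06). At 5 MPa hip caps held 7.61, 5.34, 14.9 and 2.63 CPM against 62.5, 60.9, 67.0 and 62.6 CPM, a difference of -3.05 ± 0.31 (adjusted p = 4.10e-07). At 50 MPa they held 6.32, 7.06 and 6.80 CPM against 60.5, 57.5, 56.0 and 68.0 CPM, a difference of -3.28 ± 0.44 (adjusted p = 2.77e-05). The highest hip cap library in the tests, 5 MPa replicate 3, also had the lowest cartilage marker sum of the hip caps in the tests (22224 CPM) and the highest sums of fibroblast (10514 CPM), endothelial (291 CPM) and leukocyte (797 CPM) markers. Control replicate 4, left out of the tests, had 15.7 CPM of Tead2 beside 9014 CPM of cartilage, 6930 CPM of fibroblast, 243 CPM of endothelial and 782 CPM of leukocyte markers. In 50 MPa replicate 2, also left out, Tead2 was at 9.67 CPM. There the sums were 12840 CPM of cartilage, 1358 CPM of fibroblast, 130 CPM of endothelial and 100 CPM of leukocyte markers. Its fibroblast and leukocyte sums lay below those of every other hip cap library. Tead2 overlaps Cd37, a leukocyte gene on the opposite strand. Cd37 reached 8.39 CPM in 5 MPa replicate 3, 4.94 CPM in control replicate 4 and 5.25 CPM in 50 MPa replicate 2. It lay between 0.543 and 2.77 CPM in the hip caps at 0 and 50 MPa that were tested. Whether other cell types or reads of Cd37 contribute to Tead2 in these libraries was not tested.

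Tead3 (chromosome 17, 28331671 to 28350817, minus strand) was at 11.9, 10.96 and 16.2 CPM in hip cap controls and at 23.3, 41.5, 35.1 and 42.9 CPM in metatarsal controls, so hip caps were lower in every library (-1.26 ± 0.17, adjusted p = 1.31e-05). At 5 MPa the hip caps held 14.1 to 18.8 CPM and the metatarsals 30.9 to 34.0 CPM (-0.99 ± 0.12, adjusted p = 8.53e-07). At 50 MPa they held 14.8 to 18.2 CPM and 32.0 to 41.8 CPM (-1.22 ± 0.17, adjusted p = 2.19e-05). Tead4 (chromosome 6, 128224288 to 128300823, minus strand), known for its roles in the early embryo and in muscle, was the lowest of the TEAD genes in CPM in metatarsals. It was at 4.07, 2.38 and 2.47 CPM in hip cap controls and at 4.01, 4.43, 5.37 and 5.93 CPM in metatarsal controls (-0.66 ± 0.38, 95% interval -1.45 to 0.14). At 5 MPa the groups did not overlap, with 2.26 to 3.65 CPM in hip caps and 3.72 to 7.30 CPM in metatarsals, and hip caps were lower by -0.86 ± 0.25 (adjusted p = 0.00835). That call was lost with all 24 libraries and without hip cap replicate 1 or metatarsal replicate 4 at 5 MPa, with values between -0.86 and -0.58.

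Levels of different genes were compared as CPM per kb of the median protein-coding transcript length. By this measure Tead1 made up 82.3% ± 5.2 (SD, n = 3) of the summed level of the 4 TEAD genes in hip cap controls, 80.2% ± 5.4 (n = 4) at 5 MPa and 78.3% ± 2.0 (n = 3) at 50 MPa. In metatarsals Tead2 made up the most, with 54.4% ± 1.8 in controls, 56.8% ± 1.6 at 5 MPa and 56.6% ± 3.3 at 50 MPa (n = 4 each), and Tead1 between 34.0% and 36.3% on average. Tead2 made up 7.5% ± 2.2 in hip cap controls, close to the 7.7% ± 2.8 of Tead3, and Tead4 at most 2.5% in any group mean. With the longest transcript in place of the median, the leading mean share was 50.1% to 53.4% for Tead1 in hip caps and 43.3% to 46.2% for Tead2 in metatarsals. The same gene thus led each group mean, while Tead3 took a larger share. In hip cap control replicate 3 Tead3 (43.3%) was then just above Tead1 (43.0%). Median and longest lengths were 1.248 and 9.964 kb for Tead1 and 0.592 and 3.396 kb for Tead2. Across the 10 genes, the order in hip cap controls was Amotl2, Lats2, Vgll4, Tead1, Wwtr1, Yap1, Tead3, Tead2, Tead4 and Ankrd1, from 236 ± 53 CPM per kb to 0.0276 ± 0.0478 CPM per kb. Lats2 (113 ± 3 CPM per kb) and Vgll4 (86.5 ± 18.4) did not overlap, while Vgll4 and Tead1 (58.3 ± 13.9) did, as did Wwtr1 (25.9 ± 2.4) with Yap1 (25.4 ± 2.4) and Tead3 with Tead2. In metatarsal controls Tead2 came first, at 99.1 ± 13.8 CPM per kb, above every value of Amotl2 but overlapping Vgll4. Amotl2, Vgll4, Tead1 and Lats2 followed at 71.1, 68.3, 65.6 and 61.1 CPM per kb, with ranges that overlap from each to the next. With the longest transcript Vgll4 came first in both sets of controls, so the order of unlike genes depends on the length taken.

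**Figure D2:**
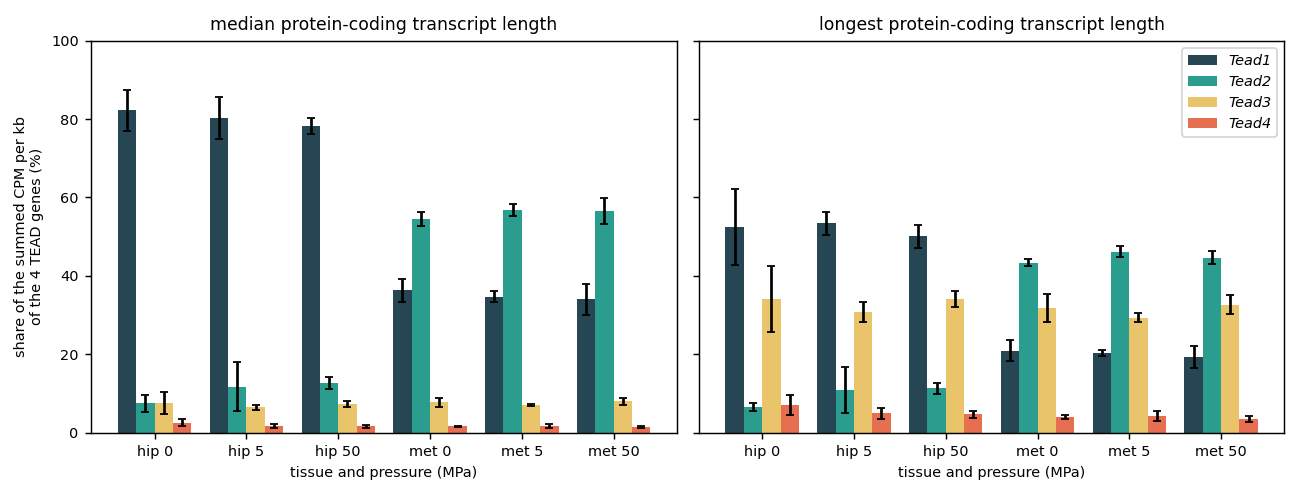
Share of each TEAD gene in the summed CPM per kb of the 4 TEAD genes (vertical axis, %), by tissue and pressure in MPa (horizontal axis), with lengths taken from the median (left) or the longest (right) protein-coding transcript. Bars are means and whiskers SDs over 3 or 4 libraries; Tead1 leads in all 3 hip cap groups and Tead2 in all 3 metatarsal groups in both panels.

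Vgll4 (chromosome 6, 114860628 to 114969994, minus strand), the cofactor that competes with YAP for TEAD, was at 107, 69.7 and 88.4 CPM in hip cap controls and at 59.1, 65.9, 68.6 and 86.1 CPM in metatarsal controls. The groups overlapped, and the difference of 0.47 ± 0.20 did not pass (adjusted p = 0.0772). With all 24 libraries, which add control replicate 4 at 26.3 CPM and 50 MPa replicate 2, the value was -0.21, and with scaling by totals alone it was -0.44. At 5 MPa hip caps lay below metatarsals in every library (49.7 to 58.9 CPM against 64.4 to 74.2 CPM), by -0.28 ± 0.14 (adjusted p = 0.114). At 50 MPa the difference was -0.16 ± 0.20, with 48.2 to 70.8 CPM against 65.5 to 72.9 CPM.

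Amotl2 (chromosome 9, 102716672 to 102733418, plus strand), an angiomotin that binds YAP and is itself a YAP target, was the gene most raised in hip caps among the 10. It stood at 221, 139 and 191 CPM in hip cap controls and at 52.4, 60.1, 61.4 and 48.2 CPM in metatarsal controls, a difference of 1.74 ± 0.23 (adjusted p = 8.57e-06). At 5 MPa it was at 130, 137, 144 and 151 CPM against 45.2, 70.2, 53.7 and 53.2 CPM (1.34 ± 0.16, adjusted p = 7.85e-07). At 50 MPa it was at 125, 117 and 170 CPM against 55.8, 52.3, 48.2 and 55.8 CPM (1.32 ± 0.24, adjusted p = 0.000413). No hip cap in the tests fell to the level of a metatarsal. In 50 MPa replicate 2, which was left out, Amotl2 was at 52.1 CPM, within the metatarsal range.

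Lats2 (chromosome 14, 57689662 to 57758388, minus strand), the kinase that phosphorylates YAP and TAZ and is in turn one of their targets, was at 96.3, 101 and 95.5 CPM in hip cap controls and at 52.9, 59.1, 48.4 and 51.1 CPM in metatarsal controls. It was higher in hip caps by 0.85 ± 0.21 (adjusted p = 0.00501), with -0.07 under scaling by totals alone and, without metatarsal control replicate 1, 0.76 that did not pass. At 5 MPa the difference was 0.54 ± 0.15 (adjusted p = 0.00622), with 64.5, 81.7, 89.4 and 76.3 CPM against 48.9, 64.9, 50.7 and 49.5 CPM, and at 50 MPa it was 0.81 ± 0.23 (adjusted p = 0.0134), with 79.9, 74.2 and 127 CPM against 52.002, 46.9, 53.2 and 54.1 CPM. Both turned negative under totals alone (-0.08 and -0.23), and both calls were lost with all 24 libraries. In the GENCODE annotation of GRCm38, 41.7% of the 31-base words of Lats2 also occur in the overlapping gene Gm49361, so kallisto could divide reads between them. Gm49361 was listed at 0 to 22.3 CPM in hip caps and at 0 to 4.45 CPM in metatarsals. With both summed into 1 gene the difference was 0.99 in controls, 0.71 at 5 MPa and 0.87 at 50 MPa, all past the threshold.

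Ankrd1 (chromosome 19, 36111961 to 36120099, minus strand), a cardiac and skeletal muscle protein often used as a YAP readout, was near the limit of detection. The hip cap controls held 1 count in all, in 1 of 3 libraries, and the metatarsal controls 40 counts, between 4 and 16 in each library. Scaled by library size, the ratio of hip caps to metatarsals was 0.0664, with a 95% interval from 0.00164 to 0.392 (exact binomial on the summed counts, covering counting error only). The fitted difference was past the threshold in controls (adjusted p = 0.0417), but the size of a fitted value on so few counts depends on the prior count. The call was lost with the replicate block and without any of 8 libraries in turn. At 5 MPa 2 to 11 counts were found in a hip cap library and 8 to 17 in a metatarsal library, and at 50 MPa 0 to 6 and 0 to 15, with no difference past the threshold. The muscle markers in the metatarsal libraries are given above, and their part in Ankrd1 was not tested.

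**Figure D3:**
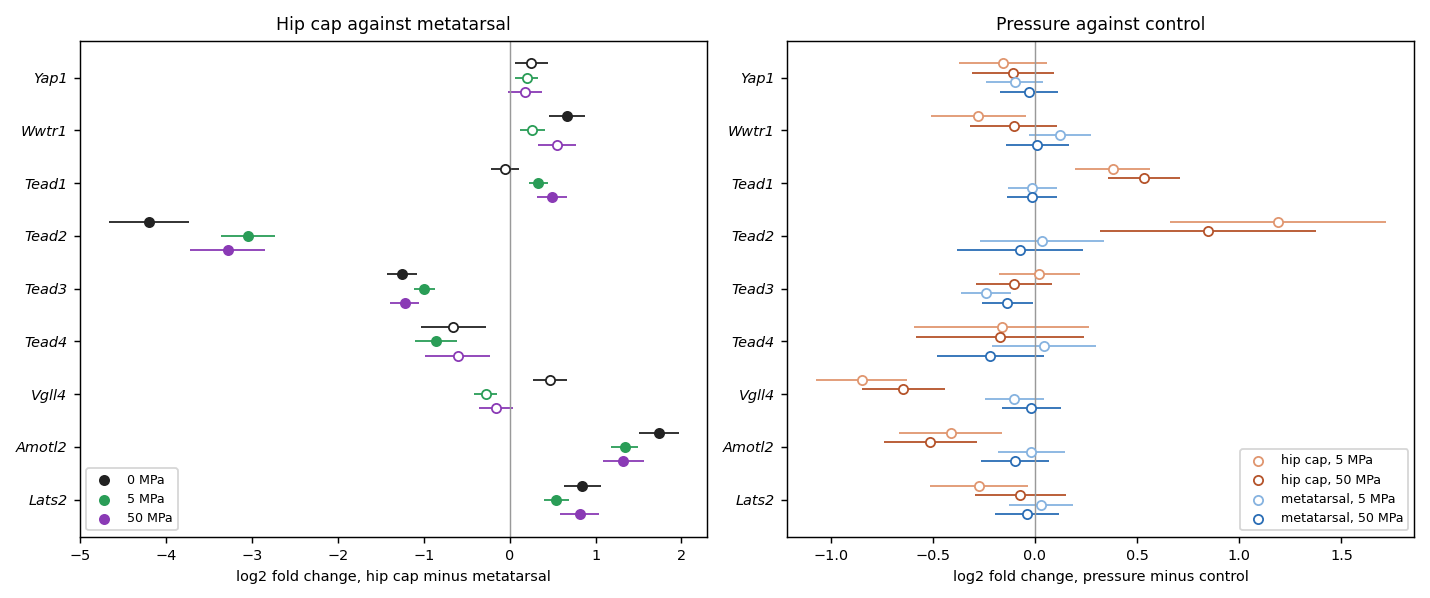
Fitted log2 fold change (horizontal axis) with its SE for 9 of the 10 genes (Ankrd1, near the floor, is left out). Left, hip caps minus metatarsals at 0, 5 and 50 MPa; right, 5 or 50 MPa minus control in hip caps and in metatarsals; filled points have an adjusted p-value of at most 0.05. Tead2, Tead3 and Amotl2 are filled at all 3 pressures on the left (with scaling by totals alone, the points of Yap1, Wwtr1, Lats2 and Vgll4 at 0 MPa turn negative), and no point is filled on the right.

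Pressure groups were compared with the controls of the same tissue, to ask whether physiological or injurious pressure changed these RNAs a day later. The fit takes the run and library-type terms as equal in both tissues, so hip cap values also draw on metatarsal libraries. By the design, the 5 MPa value put weights of 0.56 on metatarsal control replicate 1 and 0.44 on metatarsal replicate 4 at 50 MPa. The 50 MPa value put -0.76 on hip cap control replicate 3 and -0.12 on each of replicates 1 and 2. In hip caps 0 of the 10 genes passed the test with edgeR at either pressure, although 2 at 5 MPa and 3 at 50 MPa had an unadjusted p-value under 0.05. Of all genes, 0.0188% passed at 5 MPa and 5.17% at 50 MPa. DESeq2 called 1 of the 10 at 5 MPa (Vgll4), beside 2.71% of all genes, and 2 at 50 MPa (Vgll4 and Tead1), beside 11.5%. The study, which also used DESeq2, lists Vgll4 among osteoarthritis risk genes lower in hip caps at 50 MPa. The median log2 fold change of the 10 genes was -0.16 at 5 MPa and -0.10 at 50 MPa, beside 0.01 and 0.02 for all genes. All 3 hip cap libraries at 50 MPa in the tests are unstranded and 1 of the 3 controls is, and the 5 MPa and control libraries differ in run. The summed cartilage markers ranged from 49522 to 78800 CPM in controls, 22224 to 53573 CPM at 5 MPa and 33052 to 37948 CPM at 50 MPa. Of these 10 markers 0 were lower past the threshold at 5 MPa and 2 at 50 MPa. Of all genes, 1.86% were lower and 3.32% higher at 50 MPa. Skeletal muscle markers summed to 10.0 to 16.2 CPM in the tested controls and, without overlap, to 27.7 to 44.9 CPM at 50 MPa, where 1 of the 10 rose. Of the libraries left out, control replicate 4 stood at 51.6 CPM, above these 50 MPa libraries, and 50 MPa replicate 2 at 105 CPM. Fibroblast and perichondrium markers had a median log2 fold change of 0.73 at 5 MPa and 0.55 at 50 MPa, where 1 of the 10 rose, endothelial markers 0.56 and 0.72, and leukocyte markers 1.22 and 0.15. The part of these markers in the values of the 10 genes was not tested.

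Vgll4 came closest to the threshold. It was at 107, 69.7 and 88.4 CPM in hip cap controls, at 55.6, 57.9, 49.7 and 58.9 CPM at 5 MPa and at 60.2, 48.2 and 70.8 CPM at 50 MPa. The 5 MPa libraries all lay below the controls, as 1 of 4 of the 10 genes whose groups did not overlap, beside 16.2% of all genes. The log2 fold change was -0.85 ± 0.22 at 5 MPa (95% interval -1.31 to -0.38, adjusted p = 0.141) and -0.65 ± 0.20 at 50 MPa (-1.07 to -0.22, adjusted p = 0.0651). Over the alternatives and single libraries left out, the adjusted p-value ran from 0.0104 to 0.97 at 5 MPa and from 0.0210 to 0.517 at 50 MPa. With all 24 libraries, which include the control replicate at 26.3 CPM, the values were -0.04 and -0.44. Within run 1, where 50 MPa and control hip caps can be compared with 3 libraries each, the difference was -0.57 ± 0.24. That fit had no term for library type, although control replicates 1 and 2 are stranded and all 50 MPa libraries unstranded. Pressure and library type are thus largely mixed there.

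Tead1 was at 68.9, 91.7 and 57.6 CPM in hip cap controls, at 94.8 to 117 CPM at 5 MPa, above every control, and at 79.0 to 104 CPM at 50 MPa, which overlaps the controls. The log2 fold change was 0.38 ± 0.19 at 5 MPa (adjusted p = 0.344) and 0.54 ± 0.18 at 50 MPa (adjusted p = 0.077). Within run 1 it was 0.29 ± 0.24 at 50 MPa, again without a term for library type. Tead2 was at 2.63 to 14.9 CPM at 5 MPa beside 2.71 to 3.52 CPM in controls (1.19 ± 0.53, adjusted p = 0.305), and the sign turned with all 24 libraries (-0.22). At 50 MPa all 3 libraries, at 6.32 to 7.06 CPM, lay above the controls (0.85 ± 0.53, adjusted p = 0.361), the only 1 of the 10 genes without overlap there, beside 15.8% of all genes. Amotl2 gave -0.41 ± 0.25 at 5 MPa (0.12 with scaling by totals alone, where the median gene shifted to 0.52) and -0.51 ± 0.23 at 50 MPa (adjusted p = 0.188).

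For Yap1 the difference from control was -0.16 (95% interval -0.60 to 0.29) at 5 MPa and -0.11 (-0.52 to 0.31) at 50 MPa. Wwtr1 gave -0.28 (-0.76 to 0.21) and -0.10 (-0.55 to 0.34), and Lats2 -0.27 (-0.78 to 0.23) and -0.07 (-0.53 to 0.39). Tead3 gave 0.02 (-0.39 to 0.43) and -0.10 (-0.49 to 0.29), and Tead4 -0.16 (-1.05 to 0.73) and -0.17 (-1.03 to 0.69). Of these intervals, those of Tead4 alone reach below -1 on the log2 scale. Ankrd1 was at most at 0.536 CPM in the hip caps tested.

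In metatarsals 0 of the 10 genes passed at 5 or 50 MPa with edgeR, 0 had an unadjusted p-value under 0.05 and DESeq2 called 0. Of all genes 0% passed at either pressure (689 and 828 had an unadjusted p-value under 0.05, and DESeq2 called 13 and 9). Leaving Ankrd1 aside, log2 fold changes ran from -0.24 to 0.12 at 5 MPa and from -0.22 to 0.01 at 50 MPa, with SEs of 0.12 to 0.31. Tead3 had the largest of these at 5 MPa (-0.24, 95% interval -0.49 to 0.01), with 30.9 to 34.0 CPM beside 23.3 to 42.9 CPM in controls. Yap1 was at 79.4 to 83.1 CPM at 5 MPa, below the 84.3 to 90.0 CPM of every control, by -0.10 ± 0.14 (-0.39 to 0.19), the only 1 of the 10 genes without overlap, beside 2.88% of all genes. At 50 MPa 0 of the 10 were without overlap, beside 4.49%. The metatarsal libraries spread less than the hip caps, with a median dispersion of 0.0349 beside 0.106.

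Whether pressure acted differently in hip caps and metatarsals was tested by the interaction of tissue and pressure. It passed for 0 of the 10 genes at 5 MPa and for 0 at 50 MPa with edgeR, beside 0.0188% and 0.132% of all genes, with an unadjusted p-value under 0.05 for 1 and 2 of them. DESeq2 called 0 and 1 (Tead1), beside 0.601% and 6.34% of all genes. For Vgll4 the interaction was -0.75 ± 0.24 at 5 MPa (adjusted p = 0.318) and -0.63 ± 0.23 at 50 MPa (adjusted p = 0.145), and for Tead1 it was 0.39 ± 0.20 and 0.55 ± 0.19 (adjusted p = 0.466 and 0.137). Without hip cap control replicate 2, Vgll4 passed at both pressures and Tead1 at 50 MPa. No difference between the tissues in their response to pressure is therefore shown for these genes.

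All 25 other Hippo genes were tested. In controls 2 were higher and 9 lower in hip caps than in metatarsals, beside 14.1% and 15.9% of all genes. The median log2 fold change of this list was -0.29, beside -0.08 for all genes. At 5 MPa 3 were higher and 7 lower, beside 18.8% and 19.1% of all genes, and at 50 MPa 1 was higher and 4 were lower, beside 10.2% and 9.57%. Fat4, an atypical cadherin upstream of the pathway, averaged 40.2 ± 2.7 CPM (SD, n = 3) in control hip caps against 462 ± 35 CPM (n = 4) in control metatarsals (-3.50 ± 0.23, adjusted p = 8.33e-10), and its differences at 5 and 50 MPa were -3.17 ± 0.18 and -3.58 ± 0.23. Vgll2, a TEAD cofactor of skeletal muscle, had 0 counts in the hip cap controls and 17 to 75 in the metatarsal controls, at least 8.11-fold lower in hip caps against a floor of 3 counts per library. At 5 MPa it held 0 to 5 counts in hip caps and 77 to 146 in metatarsals, and at 50 MPa 0 counts and 45 to 133. The muscle markers moved in the same direction, as given above. The counts on this list changed with 1 library, from 11 in controls to 6 without hip cap control replicate 3, and to 7 without metatarsal control replicate 1 or metatarsal replicate 4 at 50 MPa.

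Of 18 further YAP and TAZ targets 8 were higher and 7 lower in control hip caps, beside 14.1% and 15.9% of all genes, and their median was 0.01. At 5 MPa the numbers were 8 and 5, beside 18.8% and 19.1%, and at 50 MPa 7 and 4, beside 10.2% and 9.57%. Ccn2, which encodes connective tissue growth factor, averaged 663 ± 146 CPM (SD, n = 3) in control hip caps against 34.4 ± 10.4 CPM (n = 4) in control metatarsals (4.28 ± 0.37, adjusted p = 3.36e-08), with 4.40 ± 0.26 at 5 MPa and 4.43 ± 0.40 at 50 MPa. Ccdc80, a matrix protein gene, was at 1293 ± 229 and 81.2 ± 3.8 CPM (3.94 ± 0.27, adjusted p = 1.30e-09), with 3.30 ± 0.18 and 3.22 ± 0.27 under pressure. Nt5e, an enzyme that makes adenosine outside cells, was at 69.8 ± 6.1 and 13.7 ± 2.3 CPM (2.37 ± 0.22), with 2.12 ± 0.14 and 2.59 ± 0.23. Igfbp3, which binds insulin-like growth factors, was the lowest relative to metatarsals, at 5.84 ± 1.30 and 66.5 ± 8.5 CPM (-3.50 ± 0.49, adjusted p = 3.83e-05), with -2.34 ± 0.33 and -2.12 ± 0.46. Without metatarsal control replicate 1, 7 of the 15 calls in controls were left, and 9 without hip cap control replicate 3 or metatarsal replicate 4 at 50 MPa.

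**Figure D4:**
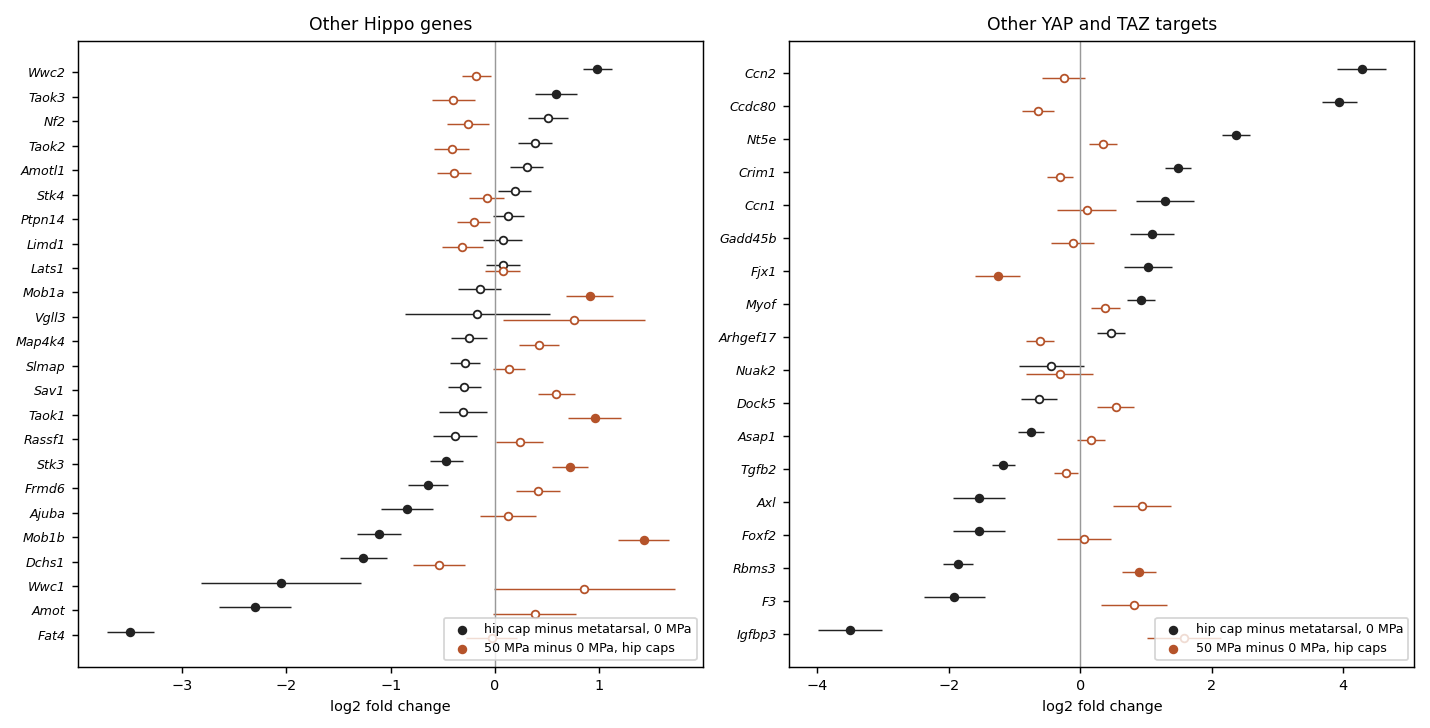
Fitted log2 fold change (horizontal axis) with its SE for 24 other Hippo genes (left, without Vgll2, which had no counts in hip cap controls) and 18 further YAP and TAZ targets (right). Black, hip caps minus metatarsals at 0 MPa; brown, 50 MPa minus 0 MPa in hip caps; filled points have an adjusted p-value of at most 0.05. Black points are filled on both sides of 0 in both panels, and few brown points are filled.

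Pressure was followed on the same lists. At 50 MPa 4 of the 25 Hippo genes rose in hip caps and 0 fell, beside 3.32% and 1.86% of all genes. These were Mob1b (1.42 ± 0.24, adjusted p = 0.00924), Taok1 (0.96 ± 0.26, adjusted p = 0.0368) and Mob1a (0.91 ± 0.23, adjusted p = 0.0284), and Stk3 (0.72 ± 0.17, adjusted p = 0.0251), which lay outside the naming rule and was named after its value was seen. MOB1A and MOB1B activate the LATS kinases, and TAOK1 and STK3 are kinases above them. Mob1b was at 8.85 to 23.5 CPM in hip cap controls, at 25.1 to 30.4 CPM at 5 MPa and at 22.7 to 26.2 CPM at 50 MPa, so the 50 MPa and control libraries overlap. Of the further targets Fjx1, a secreted kinase relative, fell by 1.25 on the log2 scale (adjusted p = 0.0407), and Rbms3, an RNA-binding protein gene also named after its value was seen, rose by 0.90 (adjusted p = 0.0463). These calls rest on the batch terms and on single libraries. Within run 1, in the fit without a term for library type, 0 of the 25 and 0 of the 18 genes passed, and Mob1b was at 0.77 ± 0.36. Without hip cap control replicate 3, the only unstranded control, 0 and 0 passed, and without metatarsal control replicate 1 or metatarsal replicate 4 at 50 MPa 1 and 0 did, while without hip cap replicate 3 at 50 MPa 1 and 0 did. The 2 calls among the targets were the less stable. They became 0 or 1 without any of 18 of the 22 libraries, 6 without hip cap replicate 3 at 5 MPa and 4 without hip cap replicate 4 at 50 MPa. At 5 MPa in hip caps and at both pressures in metatarsals edgeR called 0 genes of either list. Of both lists Mob1b alone passed the interaction at 50 MPa (1.36 ± 0.26, adjusted p = 0.0440). That call was kept in 5 of 10 alternatives and in 5 of 22 fits with 1 library left out, with adjusted p-values up to 0.367 and values between 0.91 and 1.60.

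The genes whose log2 CPM followed each member most closely over the 22 libraries were listed by Pearson's r among 15244 protein-coding genes. All these points share the split between the tissues, and the values are a description. Tead2 was followed most closely by Vash2 (r = 0.994) and Ebf3 (0.991), Amotl2 by Crim1 (0.985), itself on the list of targets, and Myh14 (0.985), Tead3 by Ttyh3 (0.969) and Srgap3 (0.966), and Lats2 by Gnb1 (0.964) and Pgam1 (0.962). For Wwtr1 they were Apbb1 (0.945) and App (0.931), for Vgll4 Dcaf8 (0.927) and Thra (0.884), for Tead1 Nfatc3 (0.925) and Ptpn12 (0.910), for Yap1 Pdzrn3 (0.898) and Mylip (0.896), for Tead4 Fgfr4 (0.872) and Dok7 (0.871), and for Ankrd1, on its few counts, Olfr1170 (0.680) and Rybp (0.670). After the mean of each group was taken out, r stayed at 0.937 for Tead2 with Vash2 and was 0.742 for Amotl2 with Crim1, 0.728 for Tead3 with Ttyh3 and 0.874 for Lats2 with Gnb1.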

How the data were processed

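Total RNA was extracted from 24 pressurized explant cultures and sequenced after ribosomal RNA depletion, and the submitters' processing notes and the study's methods name Trim Galore 0.6.5, kallisto, DESeq2 and the build GRCm39. The deposited matrix holds estimated counts per gene that the authors summed from kallisto output (annotation release not given in the sources used here), and 0 of its columns belong to other samples. Estimated counts were rounded, and 22 libraries were fitted without the 2 that the study set aside. edgeR 4.0.16 (R 4.3.3, limma 3.58.1) was used with TMM scaling, filterByExpr over the 6 groups, and a robust quasi-likelihood fit with terms for group, sequencing run and library type. Tests were two-sided, adjusted by Benjamini-Hochberg over 21283 genes and called at an adjusted p-value of at most 0.05, and log2 CPM used a prior count of 2. The run, read from a heat map by colour, gave 9 libraries to run 1 and 15 to run 2, which does not match the split over sequencing kits in the study's methods, so the run term is uncertain. The scripts were tested on simulated data with known changes.

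The alternatives were DESeq2 1.42.0, other scaling and filters, other batch terms, within-run and single-tissue fits, all 24 libraries, a replicate block and each library left out in turn. The fit within run 1 had no term for library type. A fit with Lats2 and Gm49361 summed was added after seeing the data. The 10 genes and all lists were chosen with earlier results of these data known. All 10 genes are named, with the 3 highest and 3 lowest log2 fold changes past the threshold over the Hippo and target lists in each comparison and the 2 genes most correlated with each member. Others are marked in the text, apart from those named for a promoter match. Deviations from the group means correlated from -0.28 to 0.19 over 50 pairs of samples with the same replicate number. Batch effects were left in these deviations, so a shared day is not excluded. Each hip cap sample is a separate animal, whereas the sources used here do not say whether metatarsal pools come from separate litters, so p-values measure the spread between these samples. Gene positions, transcript lengths and shared 31-base words came from the GENCODE annotation of GRCm38 and promoters from RefSeq, and neither was mixed with coordinates of GRCm39. Python 3.11.15, pandas 2.3.3 and matplotlib 3.10.9 were used for summaries and plots.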

Additional observations from a re-analysis of the deposited data

Results flagged for a closer look

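In 6 of 60 groups of 4 libraries, 1 library stood further from the rest than Dixon's 95% critical value allows, where chance gives about 1 in 20. Tead2 was at 15.7 CPM in hip cap control replicate 4, with 2.71 to 3.52 CPM in the other controls, and Tead4 was at 7.73 CPM in hip cap replicate 2 at 50 MPa, with 2.08 to 2.95 CPM in the others. Both libraries were left out of the tests. Ankrd1 was at 0.159 CPM, 1 count, in hip cap control replicate 2 and at 0 in the other controls. In metatarsals at 5 MPa, Tead1 was at 85.5 CPM in replicate 2 (79.6 to 80.0 CPM in the others), Lats2 at 64.9 CPM in the same replicate (48.9 to 50.7 CPM) and Vgll4 at 74.2 CPM in replicate 3 (64.4 to 65.9 CPM).

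The response of Mob1b to 50 MPa differed between the tissues in the test of the interaction (1.36 on the log2 scale, edgeR adjusted p = 0.0440), with 1.42 in hip caps and 0.07 in metatarsals. The call was kept in 5 of 10 alternatives and in 5 of 22 fits with 1 library left out, with adjusted p-values up to 0.367. In hip cap replicate 2 at 50 MPa, which entered no test, 4 of the 10 genes lay above all 3 tested hip cap controls. Tead2 was at 9.67 CPM, Tead3 at 17.0 CPM, Tead4 at 7.73 CPM and Ankrd1 at 2.21 CPM there. The other 6 genes lay below all 3 controls, with Yap1 at 43.2 CPM, Wwtr1 at 33.6 CPM, Tead1 at 39.2 CPM, Vgll4 at 35.9 CPM, Amotl2 at 52.1 CPM and Lats2 at 34.5 CPM.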

How the results depend on the processing

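The differences of Amotl2, Tead2 and Tead3 between tissues kept their direction and passed under every alternative at 0 and 5 MPa, and at 50 MPa except without metatarsal replicate 4 at 50 MPa and, for Amotl2, with scaling by library totals alone (0.31). Of 837 values of single genes under alternatives, 713 kept direction and side of the threshold, 60 lost it, 25 gained it and 39 turned sign, and with 1 library left out 1602 of 1738 kept both. The cause of these changes was not tested. Depth limits Ankrd1, which had at most 17 counts in any library.

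With totals alone, the median gene moved to -0.97 in controls, -0.70 at 5 MPa, -0.90 at 50 MPa (tissues), 0.52 and 0.25 (pressure in hip caps), and calls in controls split 712 higher to 8204 lower in place of 2994 to 3378. Values then turned at 5 MPa in hip caps for Amotl2 (0.12), Lats2 (0.27), Wwtr1 (0.27), Yap1 (0.38) and Tead4 (0.35), and at 50 MPa for Lats2 (0.049), Tead3 (0.11), Tead4 (0.071), Wwtr1 (0.047) and Yap1 (0.027). Between tissues they turned for Lats2 (-0.069, -0.075 and -0.23 at 0, 5 and 50 MPa), Wwtr1 (-0.25, -0.35, -0.47), Yap1 (-0.66, -0.42, -0.85), Tead1 at 5 and 50 MPa (-0.29, -0.48) and Vgll4 in controls (-0.44). With all 24 libraries they turned for Ankrd1 between tissues at 50 MPa (0.90), Tead1 (0.043) and Vgll4 (-0.21) in controls, Yap1 between tissues at 50 MPa (-0.12), and in hip caps at 5 MPa for Tead2 (-0.22), Tead3 (-0.11), Tead4 (0.54), Wwtr1 (0.13) and Yap1 (0.092) and at 50 MPa for Tead4 (0.85). Tead3 in hip caps at 50 MPa was 0.33 with no batch terms, 0.11 with library type alone, 0.33 with run alone, 0.35 within run 1 and 0.065 in a separate fit, where Tead4 was 0.040. With 1 library left out, values ran from -1.46 to 1.92 for Ankrd1, -0.30 to 0.0089 for Vgll4 and -0.10 to 0.31 for Yap1 between tissues at 50 MPa, from -0.26 to 0.059 for Tead1 in controls, from -0.24 to 0.37 for Tead3, -0.50 to 0.27 for Tead4 and -0.27 to 0.056 for Yap1 in hip caps at 5 MPa, and from -0.34 to 0.029 for Lats2, -0.38 to 0.091 for Wwtr1 and -0.38 to 0.022 for Yap1 in hip caps at 50 MPa.

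Of the 10 genes, hip caps at 5 MPa gave 0 calls, but 1 with DESeq2, 3 with no batch terms and 1 with library type alone (0 to 1 with a library left out), and at 50 MPa 0, but 2 with DESeq2, 2 with at least 10 counts in every library and 1 with no batch terms (0 to 2). Between tissues all 24 libraries gave 3 at 5 MPa and 3 at 50 MPa, and leaving out 1 library gave 3 to 7 in controls, 5 to 7 at 5 MPa and 0 to 6 at 50 MPa. The interactions gave 0 to 1 and 0 to 2, and DESeq2 gave 1 at 50 MPa. Other Hippo genes gave 18 calls in controls with totals alone and 7 with all 24 libraries (6 to 14 with a library left out). In hip caps at 50 MPa they gave 0 with totals alone, 1 with all 24 libraries, 1 with no batch terms, 2 with library type alone, 1 with run alone, 0 within run 1 and 0 in a separate fit (0 to 6). The targets there gave 4 with DESeq2, 0 with totals alone, 1 without a filter, 0 with all 24 libraries, 1 with library type alone, 1 with run alone, 0 within run 1 and 0 in a separate fit (0 to 6), and in controls 7 to 16. With the longest transcript, the share of Tead1 in hip caps was 52.4%, 53.4% and 50.1% at 0, 5 and 50 MPa and that of Tead2 in metatarsals 43.3%, 46.2% and 44.6%.

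The labels do not say whether samples with the same replicate number belong together, and the low correlations given above cannot exclude it. With the replicate block, 1 of the 10 genes was past the threshold in pressurized hip caps at 5 MPa and 1 at 50 MPa (Vgll4 in both), 0 of the targets passed at 50 MPa, and Tead3 at 5 MPa turned to -0.034. Of 92 values under the block, 81 kept direction and side of the threshold. Over all genes, the 4 calls in hip caps at 5 MPa became 577 with DESeq2, 2027 with no batch terms, 1161 with library type alone, 176 with the block, 79 in a separate fit, 48 with totals alone, 41 without a filter, 2 with all 24 libraries and 1 with at least 10 counts. The 1101 calls at 50 MPa became 2455 with DESeq2, 732 without a filter, 490 with library type alone, 44 with totals alone, 2 with all 24 libraries and 0 within run 1 or in a separate fit. In metatarsals separate fits gave 12 and 6 calls in place of 0.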
